A study of Mus musculus with 18 samples.

Results

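AP-1 is the transcription factor complex formed by the Fos and Jun proteins and their relatives, and its 8 best known genes (Fos, Fosb, Fosl1, Fosl2, Jun, Junb, Jund and Atf3) were followed by name in bulk RNA-seq of O9-1 neural crest (NC) cells driven towards osteoblasts. The members were the 8 genes of these names among the 55335 gene identifiers counted in every library, and all 8 passed the filter on low counts in each fit. O9-1 is a wildtype primary NC line isolated from the head of an E8.5 mouse embryo, and all cells were kept in osteoblast differentiation medium. Cells were transfected with a scramble siRNA (siCtrl) or with siRNA against Yap and Taz (siY/T, double knockdown, dKD) and received FGF2 or vehicle. The groups are called Y/T dKD+FGF2, Ctrl+FGF2 and Ctrl+vehicle, each with 3 libraries at day 2.5 (d2.5) and 3 at day 5 (d5), 18 in all. No library of Y/T dKD with vehicle was analysed here, so the knockdown is read only in the presence of FGF2. The labels give each day as its own batch, so day and batch cannot be told apart. Nothing in the labels says that the 3 libraries of a group came from separate cultures, and p-values then measure only the spread between these samples.

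AP-1 proteins carry a basic region that contacts DNA and a leucine zipper through which they pair. Jun proteins can pair with each other or with Fos proteins, whereas Fos proteins need a partner, so the mixture of members present sets which dimers can form. Several of these genes are immediate early genes, transcribed within minutes of a growth factor signal such as FGF acting through ERK, and AP-1 dimers are known to act together with Yap, Taz and the TEAD factors at enhancers. In bone, Fosl1 (Fra-1), Fosl2 (Fra-2), Junb and Jund have been linked to osteoblast proliferation, matrix production and bone mass.

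The libraries held 10377151 to 14698525 counts on genes (median 12330911), and levels are given as CPM (counts scaled per library size) after TMM scaling of the 18 libraries. Of 13 NC markers, 9 or 10 reached 1 CPM in each group, with Twist1 at 49.5 to 96.8 CPM, while the NC genes Sox10 and Foxd3 had 0 counts in all 18 libraries. The summed osteoblast markers were at 15398 to 35183 CPM at d2.5 and 38929 to 73168 CPM at d5. In Ctrl+vehicle Col1a1 and Col1a2 led this sum on both days. There, 5 of 10 osteoblast markers were called higher and 5 lower at d5 against d2.5. Mean Col1a1 was at 12636 CPM at d2.5 and 31912 CPM at d5, and mean Sp7 at 182 and 35.8 CPM. The summed glial, blood and immune, endothelial and epithelial markers stayed between 0.101 and 4.59 CPM, the adipocyte sum at 40.6 to 74.4 CPM, and the cartilage sum at 40.8 to 806 CPM. The smooth muscle sum was between 66.2 and 363 CPM at d2.5 and between 2389 and 3656 CPM at d5, where Acta2 led it. The defining markers Fabp7 (glia), Cd3e and Tyrobp (blood) and Cdh5 and Tie1 (endothelium) had 0 counts in all 18 libraries. In bulk RNA, fewer cells with a transcript and less transcript per cell cannot be told apart.

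The siRNA targets were lower in the Y/T dKD+FGF2 libraries, though not lost. Compared to Ctrl+FGF2, Yap1 was at 51.5% at d2.5 and 46.0% at d5, and Wwtr1, which encodes Taz, at 60.8% and 57.5% (edgeR adjusted p of 2.55e-15 or below for each at d2.5 and 4.92e-11 or below at d5). FGF2 itself raised Wwtr1 at d2.5 (log2 fold change 0.65 ± 0.04 SE, edgeR adjusted p = 1.30e-16). As a result, the Wwtr1 levels of Y/T dKD+FGF2 (130.0 to 142 CPM) and Ctrl+vehicle (138 to 142 CPM) overlapped at d2.5.

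The proximal promoters of Fos, Jun, Junb and Atf3 are shown because these 4 genes rose with the knockdown at d5 and have a RefSeq promoter entry whose start lies within or right beside the gene in GENCODE M21. Jund also rose, but its RefSeq window (chr8:70697489-70697788) lies clear of the GENCODE gene, and it held none of the motifs searched. Each line gives the 150 bases before the RefSeq start, on the strand of the gene (GRCm38.p6). They lie at chr12:85473740-85473889 on the plus strand for Fos, chr4:95052223-95052372 on the minus strand for Jun, chr8:84978749-84978898 on the minus strand for Junb and chr1:191183334-191183483 on the minus strand for Atf3. Capitals mark TGACG on either strand (CGTCA where it is read on the other strand) and TGACNTCA.
Fos: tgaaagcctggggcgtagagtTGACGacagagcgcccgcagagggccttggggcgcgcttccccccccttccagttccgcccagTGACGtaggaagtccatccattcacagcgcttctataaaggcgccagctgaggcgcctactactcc
Jun: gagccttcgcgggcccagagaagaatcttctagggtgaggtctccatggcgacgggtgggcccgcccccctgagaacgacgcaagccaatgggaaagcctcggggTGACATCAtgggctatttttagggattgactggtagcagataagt
Junb: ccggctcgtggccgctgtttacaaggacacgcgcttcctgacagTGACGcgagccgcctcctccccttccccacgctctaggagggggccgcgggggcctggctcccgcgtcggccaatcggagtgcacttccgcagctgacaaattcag
Atf3: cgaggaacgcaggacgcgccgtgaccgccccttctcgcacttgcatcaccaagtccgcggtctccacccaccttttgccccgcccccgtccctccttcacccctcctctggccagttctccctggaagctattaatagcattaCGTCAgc

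Of the 8 members, 7 had a RefSeq promoter window of 300 bases (250 before and 50 after the start). Fosl1 had none. The windows were searched on both strands for TGANTCA (the classical AP-1 site), TGACGTCA (the cAMP response element), CATTCC (a TEAD site) and the CArG box bound by SRF. None of the 7 windows held any of them, and 7.81%, 1.79%, 14.7% and 1.63% of all 32851 windows did. With only 7 windows, this absence was not tested against those shares. After the sequences had been seen, TGACG, a part of TGACGTCA, and TGACNTCA, which also covers TGACGTCA, were added. TGACG was in the windows of Fos, Fosb, Junb and Atf3 and in 20.8% of all windows, and it began 129 and 66 bases before the start of Fos, 60 before Fosb and 106 before Junb, and lay within the last 7 bases before the start of Atf3. TGACNTCA was in the window of Jun only among the members, 45 bases before the start, and in 8.83% of all windows. A match is a description of letters and no match says only that these letters are not in this window.

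The counting strand matters for part of the members. Per GENCODE M21 on GRCm38, Fosl1 (chr19:5447547-5455946, plus strand) shares 1163 of its 2033 exon bases with Ccdc85b on the other strand, and Jund (chr8:70698949-70700616, plus strand) shares 877 of 1668 with the antisense gene Gm11175. Counting that ignored strand kept only 13.9% of the Fosl1 counts and 35.1% of the Jund counts, and 89.2% of those of Jun (chr4:95049034-95052222, minus strand), which overlaps Junos. For Fos (chr12:85473890-85477273, plus strand), Fosb (chr7:19302696-19310051, minus strand), Fosl2 (chr5:32135801-32157842, plus strand), Junb (chr8:84974484-84978718, minus strand) and Atf3 (chr1:191170296-191218039, minus strand) it kept 100.2% to 100.5%. All levels below use the stranded counts, and calls of Fosl1 and Jund that strandless counts did not keep are named with their values.

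**Figure D1:**
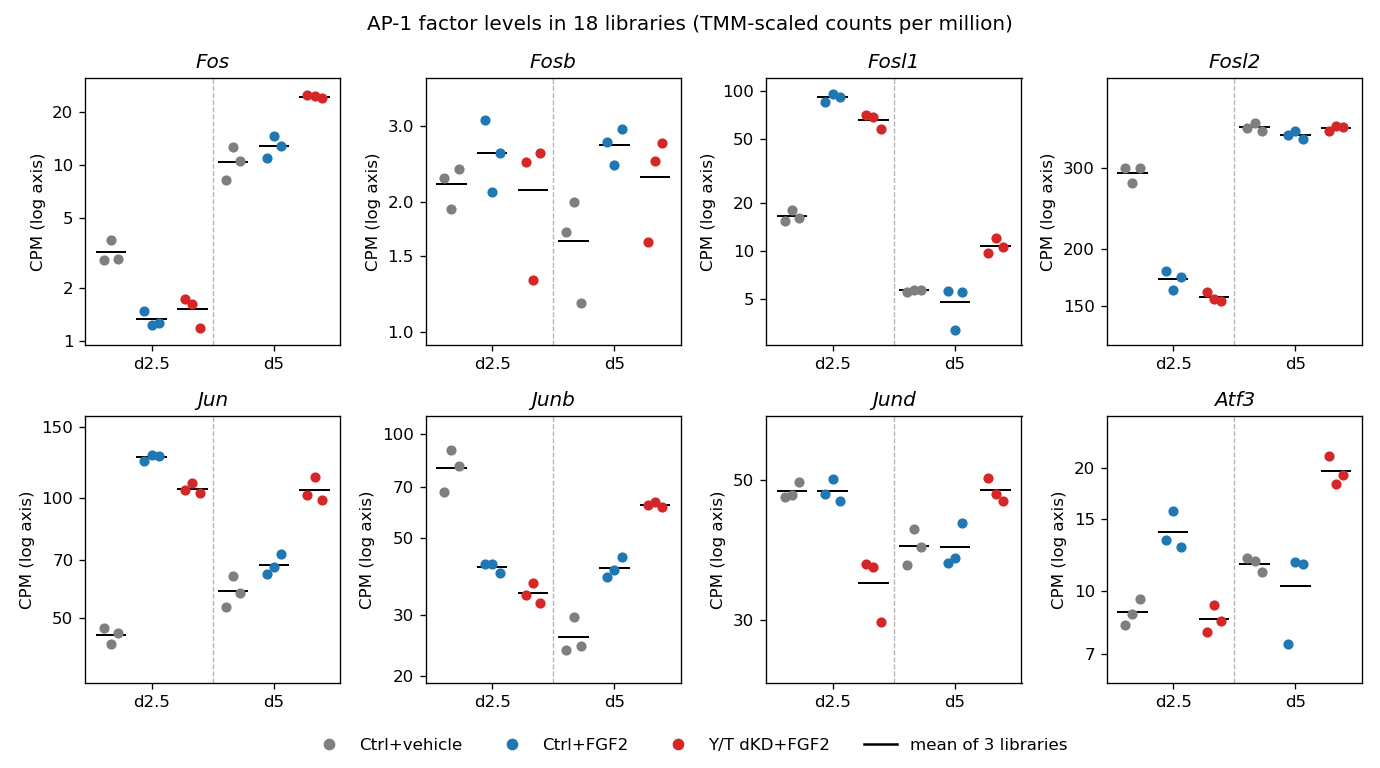
TMM-scaled CPM (log axis) of the 8 AP-1 genes, 1 point per library and a line at the mean of 3, with d2.5 left and d5 right of the dashed line. Fosl1 runs from 3.18 to 96.4 CPM and Fos from 1.18 to 24.9 CPM, while Jund stays between 29.9 and 50.4 CPM.

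At d2.5, compared to Ctrl+vehicle, FGF2 raised Fosl1, Jun and Atf3 and lowered Fos, Fosl2 and Junb. The 3 of 8 called higher and 3 of 8 lower are near the shares of all 13677 genes tested, of which 33.5% were called higher and 34.1% lower. Marker sums of bone, cartilage and smooth muscle were also lower with FGF2 at d2.5, with osteoblast markers at 15398 to 15719 CPM against 34735 to 35183 CPM (7 of 9 tested called lower and 2 higher). The cartilage sum was at 40.8 to 45.7 CPM against 579 to 806 CPM (4 of 4 lower) and the smooth muscle sum at 80.1 to 88.7 CPM against 264 to 363 CPM (3 of 3 lower). The part of these markers in the members' changes was not tested. The knockdown at d2.5 went in a single direction, with 0 members higher and 6 of 8 lower (Fosl1, Fosl2, Jun, Junb, Jund and Atf3), against 10.8% and 13.6% of all genes. At d5 FGF2 raised 3 of 8 members (Fosb, Jun and Junb) and lowered 0, where 23.5% of 13304 genes were called higher and 23.7% lower. These counts are small and were not tested against those shares. The osteoblast marker sum was at 38929 to 42978 CPM with FGF2 at d5 against 70358 to 73168 CPM (4 of 10 higher and 6 lower), and its part was not tested either. The knockdown at d5 raised 6 of 8 (Fos, Fosl1, Jun, Junb, Jund and Atf3) and lowered 0, against 15.6% and 16.1% of all genes. The median log2 fold change over the 8 members was 0.11 for FGF2 and −0.29 for the knockdown at d2.5, and 0.11 and 0.61 at d5. The FGF2 and the knockdown comparisons of a day share their Ctrl+FGF2 libraries. With libraries scaled to total counts in place of TMM, the FGF2 fold changes at d5 moved up by 0.10 in the median gene, and 4727 of 6784 called genes were higher in place of 3125 of 6278. Counts of 3 members for FGF2 at d5 fell to 1 without Ctrl+FGF2 replicate 3, when only Junb stayed called.

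Compared to Ctrl+vehicle, Y/T dKD+FGF2 had 2 of 8 members higher (Fosl1 and Jun) and 4 lower (Fos, Fosl2, Junb and Jund) at d2.5, where 34.1% and 35.7% of genes were called. At d5 the same comparison had 6 higher (Fos, Fosl1, Jun, Junb, Jund and Atf3) and 0 lower, against 20.7% and 21.1%. Strandless counts did not keep Jund at d2.5 (−0.16, edgeR adjusted p = 0.127), nor Jund (0.15, 0.298) and Fosl1 (0.74, 0.0623) at d5. The median log2 fold change of the members was −0.28 at d2.5 and 0.80 at d5, and that of all genes tested lay between −0.01 and 0.02 in the 6 comparisons within a day. With total counts, 3875 of 5894 called genes were higher in the d5 comparison in place of 2751 of 5564.

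**Figure D2:**
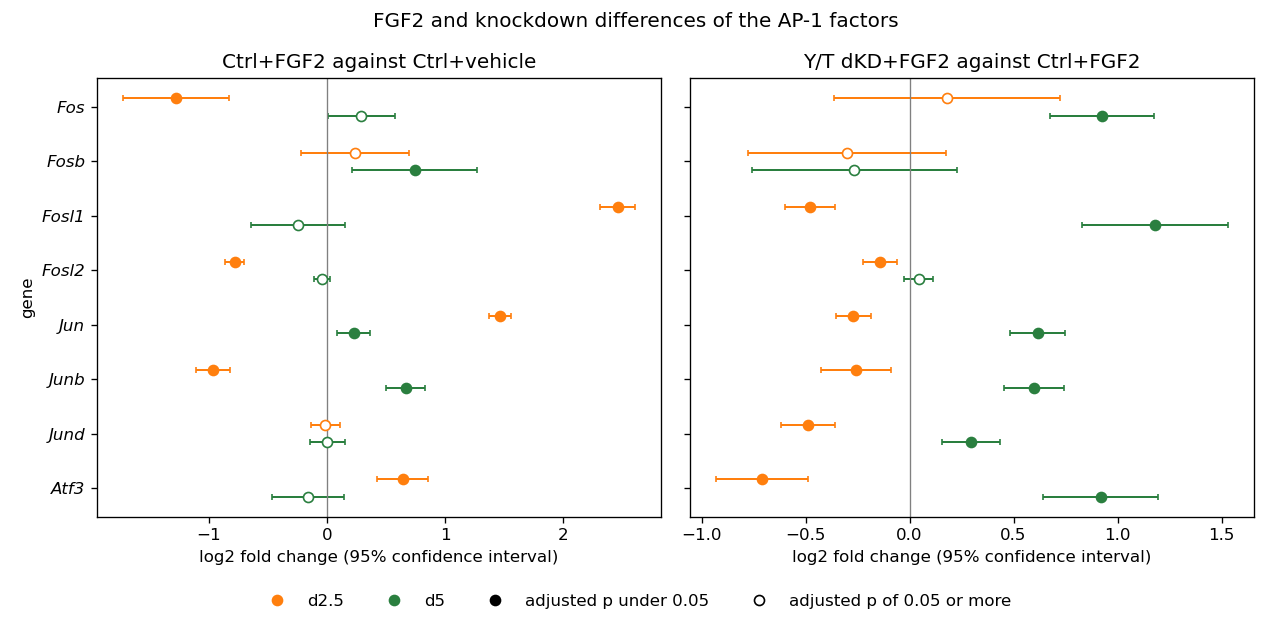
Log2 fold changes of the 8 AP-1 genes with 95% confidence intervals for FGF2 (left) and the knockdown (right), at d2.5 (orange) and d5 (green), filled where the edgeR adjusted p was under 0.05. The filled knockdown points all lie below 0 at d2.5 and above 0 at d5, while the filled FGF2 points at d2.5 lie on both sides of 0.

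Fos, the founding member and a textbook immediate early gene, was low at d2.5 and rose to d5. At d2.5 its 3 libraries were at 2.90, 3.74 and 2.94 CPM in Ctrl+vehicle, 1.48, 1.24 and 1.27 CPM in Ctrl+FGF2 and 1.74, 1.63 and 1.18 CPM in Y/T dKD+FGF2. At d5 they were at 8.24, 12.7 and 10.5 CPM, at 10.9, 14.6 and 12.9 CPM, and at 24.9, 24.6 and 24.0 CPM in the same order. Every vehicle library was above every FGF2-treated library at d2.5, and at d5 the knockdown libraries stood clear of both control groups, which overlapped. FGF2 lowered Fos at d2.5 to 41.2% of its vehicle level (log2 fold change −1.28 ± 0.22 SE, edgeR adjusted p = 6.59e-06), and the knockdown left it at 0.18 ± 0.27 (adjusted p = 0.674). These d2.5 values rest on 15 to 58 counts per library. At d5 FGF2 gave 0.29 ± 0.14 (adjusted p = 0.0858), which missed the threshold but passed it with total counts (0.0186), with no filter (0.0468), without Ctrl+vehicle replicate 2 (0.0101) or without Ctrl+FGF2 replicate 1 (0.0251). The knockdown raised Fos at d5 by 1.90-fold (0.92 ± 0.12, adjusted p = 8.87e-06). The FGF2 difference of Fos changed by 1.55 ± 0.27 from d2.5 to d5 (adjusted p = 1.16e-05), whereas the change of the knockdown difference, 0.74 ± 0.32, did not pass (adjusted p = 0.0972).

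Fosb, an immediate early relative of Fos, was the least abundant member on the scale of CPM per kb of exon in every group. Its libraries were at 2.28, 1.94 and 2.40 CPM in Ctrl+vehicle, 3.10, 2.11 and 2.61 CPM in Ctrl+FGF2 and 2.48, 1.32 and 2.61 CPM in Y/T dKD+FGF2 at d2.5. The d5 libraries were at 1.71, 2.0 and 1.17 CPM, 2.76, 2.44 and 2.96 CPM, and 1.62, 2.49 and 2.75 CPM in the same order. Only the Ctrl+vehicle and Ctrl+FGF2 libraries of d5 did not overlap. FGF2 raised Fosb at d5 by 0.74 ± 0.25 on the log2 scale (edgeR adjusted p = 0.0217), on 13 to 33 counts per library, and the call did not hold with DESeq2 (0.0919), without Ctrl+vehicle replicate 3 (0.113) or without Ctrl+FGF2 replicate 3 (0.0756). No other FGF2 or knockdown comparison of Fosb passed, with 95% intervals of −0.22 to 0.70 for FGF2 and −0.78 to 0.17 for the knockdown at d2.5 and −0.76 to 0.23 for the knockdown at d5.

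Fosl1, which encodes Fra-1 and is known to follow sustained ERK signals, had the widest range of the 8 members, 4.27 on the log2 scale between its lowest and highest group mean. At d2.5 its libraries were at 15.4, 18.1 and 15.9 CPM in Ctrl+vehicle, 86.3, 96.4 and 92.2 CPM in Ctrl+FGF2 and 71.4, 69.4 and 57.9 CPM in Y/T dKD+FGF2. At d5 they were at 5.53, 5.67 and 5.66 CPM, 5.61, 3.18 and 5.48 CPM, and 9.61, 12.0 and 10.5 CPM in the same order. The 3 groups did not overlap at d2.5, with the knockdown between vehicle and FGF2, and at d5 the knockdown libraries were above both control groups. FGF2 raised Fosl1 at d2.5 by 5.50-fold (log2 fold change 2.46 ± 0.07 SE, edgeR adjusted p = 2.12e-23), and the knockdown lowered it (−0.48 ± 0.06, adjusted p = 3.86e-07). Y/T dKD+FGF2 still stood 3.95-fold above Ctrl+vehicle (adjusted p = 2.40e-20), so the knockdown left most of the FGF2 difference in place. At d5 FGF2 gave −0.24 ± 0.19 (adjusted p = 0.307, 95% interval −0.64 to 0.15) and the knockdown raised the gene by 2.27-fold (1.18 ± 0.17, adjusted p = 2.74e-05). The d5 rise was 0.64 with strandless counts (adjusted p = 0.119), which left 6 to 19 counts per library in place of 39 to 145, while the d2.5 calls held with 2.34 for FGF2 and −0.75 for the knockdown. From d2.5 to d5 the FGF2 difference changed by −2.73 ± 0.22 (adjusted p = 6.24e-12) and the knockdown difference by 1.66 ± 0.18 (adjusted p = 7.40e-08).

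Ccdc85b, which overlaps Fosl1 on the other strand, is no member and was taken for this overlap alone. It did not rise with Fosl1 under FGF2 at d2.5 (−0.03 ± 0.09, edgeR adjusted p = 0.800) and did not pass for the knockdown at d5 (−0.24 ± 0.12, adjusted p = 0.133), though it fell with the knockdown at d2.5 (−0.70 ± 0.10, adjusted p = 3.07e-06). At d5 Ccdc85b was at 13.8 to 15.8 CPM in Ctrl+FGF2 against 5.93 to 8.75 CPM in Ctrl+vehicle, while Fosl1 was not called for FGF2 there.

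Fosl2, which encodes Fra-2 and is known to promote osteoblast matrix genes, had the most counts of the 8 in every group. Its libraries were at 301, 279 and 301 CPM in Ctrl+vehicle, 179, 163 and 174 CPM in Ctrl+FGF2 and 161, 156 and 154 CPM in Y/T dKD+FGF2 at d2.5. At d5 the levels were 367, 377 and 363 CPM, 355, 362 and 349 CPM, and 361, 372 and 370.0 CPM in the same order. All vehicle libraries were above all FGF2-treated libraries at d2.5, whereas every library of d5 was within 349 to 377 CPM. FGF2 lowered Fosl2 at d2.5 (log2 fold change −0.78 ± 0.04 SE, edgeR adjusted p = 7.13e-18), and the knockdown lowered it slightly further (−0.14 ± 0.04, adjusted p = 0.00907). That small fall did not pass without Ctrl+FGF2 replicate 1 (adjusted p = 0.0807) or Y/T dKD+FGF2 replicate 3 (0.0514). At d5 FGF2 gave −0.04 ± 0.03 (adjusted p = 0.320, 95% interval −0.11 to 0.03) and the knockdown 0.04 ± 0.03 (adjusted p = 0.357, −0.03 to 0.11). The FGF2 difference changed between the days by 0.72 ± 0.05 (adjusted p = 1.26e-12). The knockdown difference changed by 0.18 ± 0.05 (adjusted p = 0.0167), which did not hold with no filter (0.0606) or without Ctrl+FGF2 replicate 1 (0.0895) or 3 (0.0535) of d2.5.

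Jun, the first named Jun protein and a known target of its own product, followed Fosl1 in direction at d2.5. Its libraries were at 47.3, 43.0 and 46.1 CPM in Ctrl+vehicle, 124, 128 and 127 CPM in Ctrl+FGF2 and 104, 109 and 103 CPM in Y/T dKD+FGF2. The d5 libraries were at 53.5, 63.7 and 58.0 CPM, 64.3, 67.0 and 72.4 CPM, and 102, 112 and 98.9 CPM in the same order. No groups overlapped within a day, and the knockdown libraries changed from below Ctrl+FGF2 at d2.5 to above it at d5. FGF2 raised Jun by 2.76-fold at d2.5 (log2 fold change 1.46 ± 0.04 SE, edgeR adjusted p = 6.13e-23) and by 1.17-fold at d5 (0.23 ± 0.07, adjusted p = 0.00977, or 0.0665 without Ctrl+FGF2 replicate 3). The knockdown lowered it at d2.5 (−0.27 ± 0.04, adjusted p = 9.94e-06) and raised it at d5 (0.62 ± 0.06, adjusted p = 6.66e-07). Both differences changed between the days, by −1.26 ± 0.08 for FGF2 (adjusted p = 7.79e-14) and by 0.88 ± 0.08 for the knockdown (adjusted p = 1.23e-09).

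Junos, the antisense gene at the Jun locus, was named after its values were seen. It had 8 to 12 counts per library in Ctrl+vehicle at d2.5, 127 to 138 in Ctrl+FGF2 and 111 to 118 in Y/T dKD+FGF2, and 6 to 22 in every library of d5. FGF2 thus raised it at d2.5 (3.63 ± 0.19, edgeR adjusted p = 3.85e-17), and the knockdown gave −0.01 ± 0.11 there (adjusted p = 0.976). Its FGF2 difference changed by −3.21 ± 0.48 from d2.5 to d5 (adjusted p = 9.87e-07).

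Junb, a Jun protein often found to oppose Jun at shared sites, moved against Jun under FGF2 at d2.5. Its libraries were at 67.7, 89.8 and 80.7 CPM in Ctrl+vehicle, 42.1, 42.0 and 39.5 CPM in Ctrl+FGF2 and 34.3, 37.1 and 32.5 CPM in Y/T dKD+FGF2 at d2.5. At d5 they were at 23.8, 29.7 and 24.3 CPM, 38.5, 40.3 and 44.1 CPM, and 62.1, 63.6 and 61.3 CPM in the same order. The order of the 3 groups was thus turned around between the days, from vehicle highest at d2.5 to the knockdown highest at d5, with no overlap on either day. FGF2 lowered Junb at d2.5 (log2 fold change −0.96 ± 0.07 SE, edgeR adjusted p = 1.99e-13) and raised it at d5 (0.67 ± 0.08, adjusted p = 1.82e-06). The knockdown raised it at d5 (0.60 ± 0.07, adjusted p = 2.53e-06). At d2.5 the knockdown gave −0.26 ± 0.08 (adjusted p = 0.0195), a call that did not hold without Ctrl+FGF2 replicate 1 (0.0695) or 2 (0.0615) or Y/T dKD+FGF2 replicate 1 (0.0648) or 3 (0.123). The change between the days was 1.60 ± 0.12 for FGF2 (adjusted p = 1.64e-12) and 0.86 ± 0.12 for the knockdown (adjusted p = 3.83e-06). Y/T dKD+FGF2 against Ctrl+vehicle gave −1.22 ± 0.07 at d2.5 and 1.27 ± 0.07 at d5.

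Jund, the Jun protein usually described as the most constant, did not move with FGF2. Its libraries were at 46.9, 47.3 and 49.6 CPM in Ctrl+vehicle, 47.4, 50.1 and 46.2 CPM in Ctrl+FGF2 and 36.8, 36.4 and 29.9 CPM in Y/T dKD+FGF2 at d2.5. At d5 the levels were 36.7, 41.8 and 39.1 CPM, 36.9, 37.6 and 42.7 CPM, and 50.4, 47.5 and 46.3 CPM in the same order. The control groups overlapped on both days, and the knockdown libraries lay below them at d2.5 and above them at d5. FGF2 gave −0.01 ± 0.06 at d2.5 (edgeR adjusted p = 0.864, 95% interval −0.13 to 0.11), and at d5 an interval of −0.14 to 0.15 (adjusted p = 0.974). The knockdown lowered Jund at d2.5 (−0.49 ± 0.06, adjusted p = 1.28e-06) and raised it at d5 (0.30 ± 0.07, adjusted p = 0.00242), and this difference changed by 0.78 ± 0.10 between the days (adjusted p = 8.79e-07). Strandless counts gave −0.35 at d2.5 (adjusted p = 0.00527) and 0.27 at d5 (adjusted p = 0.0693), with a change of 0.62 (adjusted p = 0.00183). For d5 against d2.5 in Ctrl+vehicle, Jund was at −0.28 (adjusted p = 0.000596) with stranded and 0.025 (adjusted p = 0.836) with strandless counts.

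Atf3, a stress-induced relative that pairs with Jun proteins and is often described as a repressor, was raised by FGF2 at d2.5. Its libraries were at 8.28, 8.78 and 9.58 CPM in Ctrl+vehicle, 13.3, 15.7 and 12.8 CPM in Ctrl+FGF2 and 7.95, 9.26 and 8.45 CPM in Y/T dKD+FGF2. The d5 libraries were at 12.1, 11.8 and 11.1 CPM, 7.44, 11.8 and 11.7 CPM, and 21.4, 18.3 and 19.3 CPM in the same order. At d2.5 the knockdown libraries overlapped the vehicle libraries and lay below Ctrl+FGF2, and at d5 they were above all others. FGF2 raised Atf3 at d2.5 (log2 fold change 0.64 ± 0.10 SE, edgeR adjusted p = 3.06e-06) and the knockdown lowered it (−0.71 ± 0.11, adjusted p = 1.32e-05), so that Y/T dKD+FGF2 against Ctrl+vehicle gave −0.07 ± 0.12 (adjusted p = 0.614, 95% interval −0.31 to 0.17). At d5 FGF2 gave −0.16 ± 0.14 (adjusted p = 0.386) and the knockdown raised it by 1.89-fold (0.92 ± 0.13, adjusted p = 3.25e-05). The change between the days was −0.82 ± 0.18 for FGF2 (adjusted p = 0.000196) and 1.62 ± 0.17 for the knockdown (adjusted p = 3.71e-08).

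The test of the difference between the days thus called 3 of 8 members higher (Fos, Fosl2 and Junb) and 3 lower (Fosl1, Jun and Atf3) at d5 for the FGF2 effect, where 31.8% and 29.1% of 14198 genes were called. For the knockdown effect it called 6 of 8 higher (Fosl1, Fosl2, Jun, Junb, Jund and Atf3) and 0 lower, against 11.6% and 9.35% of genes. The osteoblast markers also moved with the knockdown, with 4 higher and 1 lower of 9 tested at d2.5 and 10 of 10 higher at d5. The shares of all genes called higher and lower were 10.8% and 13.6% at d2.5 and 15.6% and 16.1% at d5. The part of the osteoblast markers in the members' changes was not tested. Most genes differed between d5 and d2.5 in each group. In Ctrl+vehicle 66.4% of genes were called in either direction, and 7 of 8 members were, all but Fosb. In Ctrl+FGF2 80.0% were called, and 6 of 8 members were, all but Fosb and Junb. In Y/T dKD+FGF2 78.4% were called, and 6 of 8 members were, all but Fosb and Jun. Fos was higher at d5 by 1.72 ± 0.16, 3.27 ± 0.18 and 4.01 ± 0.16 on the log2 scale in these 3 groups, and Fosl1 differed by −1.55 ± 0.14, −4.28 ± 0.11 and −2.62 ± 0.10 (edgeR adjusted p of 9.23e-11 or below for both). With total counts the median gene shifted by −0.24, −0.14 and −0.16 in these comparisons, 2929 of 10156 called genes in place of 4702 of 9421 were higher in Ctrl+vehicle, and Jun and Atf3 in Ctrl+vehicle were at 0.13 and 0.16 and not called, in place of 0.37 and 0.40.

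On the scale of CPM per kb of exon, used here to set levels of different genes side by side, the leading member changed with treatment and day. The length is that of all merged exons of a gene, and which transcripts these cells use was not tested. Without length, Fosl2 was the highest member by CPM in every group. In Ctrl+vehicle at d2.5 the order was led by Junb (34.5 ± 4.85, SD, n = 3), Fosl2 (30.3 ± 1.34) and Jund (28.7 ± 0.884), whose neighbours overlapped. In Ctrl+FGF2 at d2.5 Fosl1 led with 45.1 ± 2.51, clear of Jun (39.6 ± 0.687) and Jund (28.7 ± 1.19), and Junb (17.9 ± 0.640) and Fosl2 (17.8 ± 0.828) followed without a gap between them. In Y/T dKD+FGF2 Jun (33.0 ± 1.01) and Fosl1 (32.6 ± 3.58) overlapped at the top. At d5 Fosl2 led every group, with 36.7 ± 0.668 in Ctrl+FGF2, 38.1 ± 0.786 in Ctrl+vehicle and 38.0 ± 0.568 after the knockdown. In the knockdown at d5 the 8 members formed a series with no overlapping neighbours, in the order Fosl2, Jun, Jund, Junb, Fos, Atf3, Fosl1 and Fosb.

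**Figure D3:**
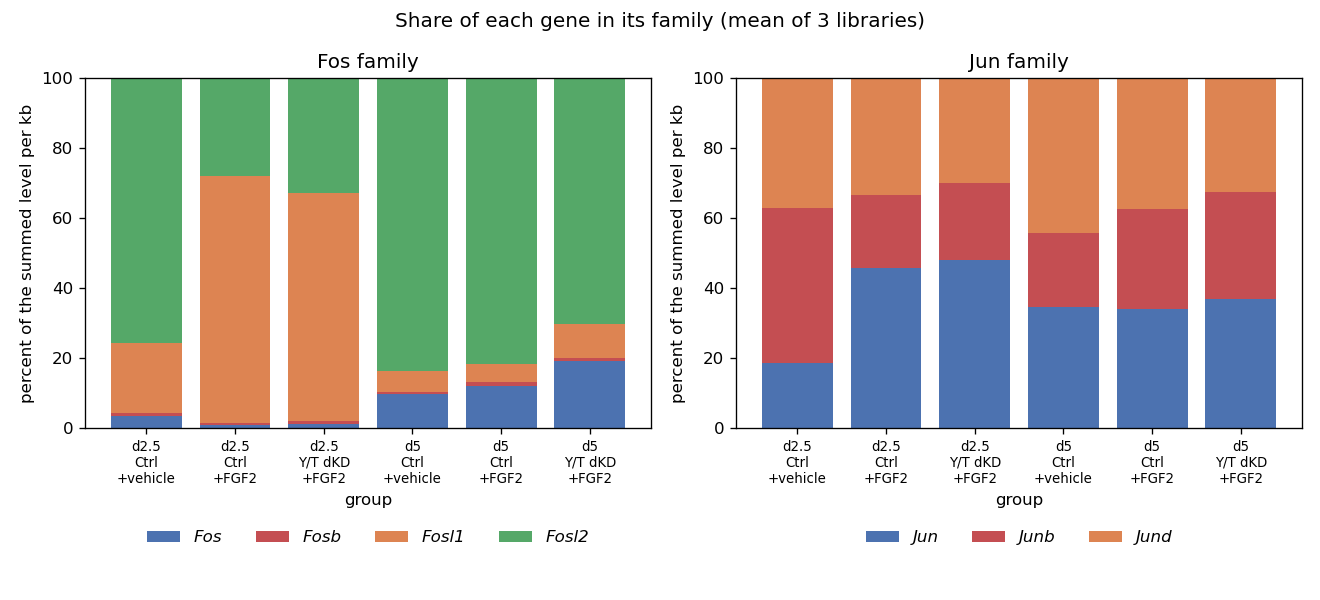
Mean share of each gene in the summed level per kb of exon of the Fos family (left) and Jun family (right), in percent, for the 6 groups with 3 libraries each. Fosl1 makes up 70.6% of the Fos family in Ctrl+FGF2 at d2.5 and 5.22% at d5.

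Within the Fos family, the larger of Fosl1 and Fosl2 per length changed with FGF2 at d2.5. Per length, Fosl1 made up 20.2% ± 1.98 (SD, n = 3) of the summed Fos family level in Ctrl+vehicle at d2.5, 70.6% ± 2.19 with FGF2 and 65.3% ± 2.16 with FGF2 and the knockdown. Fosl2 made up 75.5% ± 2.45, 27.9% ± 1.95 and 32.7% ± 2.11. At d5 Fosl1 was down to 6.06% ± 0.174, 5.22% ± 1.55 and 9.74% ± 0.918, and Fosl2 held 83.6% ± 1.67, 81.7% ± 0.956 and 70.3% ± 0.616. The share of Fos itself was at most 4.02% in a library of d2.5 and 18.9% to 20.0% in the knockdown at d5. The Fosl1 share in Ctrl+FGF2 at d2.5 was 34.3% when levels were not divided by length, and Fosl2 was then the larger in every group. In the Jun family at d2.5, Jun made up 18.5% ± 1.92 in Ctrl+vehicle and 45.9% ± 0.944 in Ctrl+FGF2, and Junb 44.4% ± 3.81 and 20.8% ± 0.573. At d5 the Jun share per length was between 33.7% and 38.6% in all 9 libraries. Per length, Jund was then the largest in Ctrl+vehicle with 44.3% ± 0.920 and in Ctrl+FGF2 with 37.5% ± 0.503. Without length Jun was the larger in both, with 47.3% against 31.8% for Jund in Ctrl+vehicle and 45.9% against 26.4% in Ctrl+FGF2. The summed Jun family level per kb was highest in Y/T dKD+FGF2 at d5 (88.6 ± 2.98) and Ctrl+FGF2 at d2.5 (86.2 ± 1.95), whose libraries overlapped, and lowest in Ctrl+vehicle at d5 (53.1 ± 4.48). These shares and sums are given as descriptions, without a test.

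The neighbours of AP-1 in the pathway were read from hand-written lists. Of 24 other immediate early genes, 22 were tested at d2.5 and all at d5. FGF2 called 10 higher and 9 lower at d2.5 and 13 higher and 4 lower at d5, against 33.5% and 34.1%, and 23.5% and 23.7%, of all genes. The knockdown called 1 higher and 10 lower at d2.5 and 18 higher and 4 lower at d5, against 10.8% and 13.6%, and 15.6% and 16.1%. At d2.5 FGF2 raised Egr3 (log2 fold change 4.80 ± 0.12 SE) and Myc (1.35 ± 0.04) and lowered the stress gene Gadd45b (−1.73 ± 0.08). The Egr3 rise was from 14 to 20 counts per library to 440 to 518, so it rests on low counts in Ctrl+vehicle. At d5 it raised the nuclear receptor Nr4a1 (1.23 ± 0.12) and Egr3 (1.00 ± 0.18) and lowered Klf4 (−0.93 ± 0.07). The knockdown lowered Ier3 (−0.77 ± 0.09), the MAP kinase phosphatase Dusp1 (−0.74 ± 0.17) and Klf2 (−0.47 ± 0.14) at d2.5. Dusp1 had 66 to 84 counts per library in Ctrl+FGF2 there and 36 to 49 in Y/T dKD+FGF2. At d5 the knockdown raised Ier3 (0.80 ± 0.10) and Egr2 (0.69 ± 0.16, from 36 to 52 counts per library to 54 to 75) and lowered Klf2 (−0.65 ± 0.08). The edgeR adjusted p of these named genes was 0.0115 or below.

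**Figure D4:**
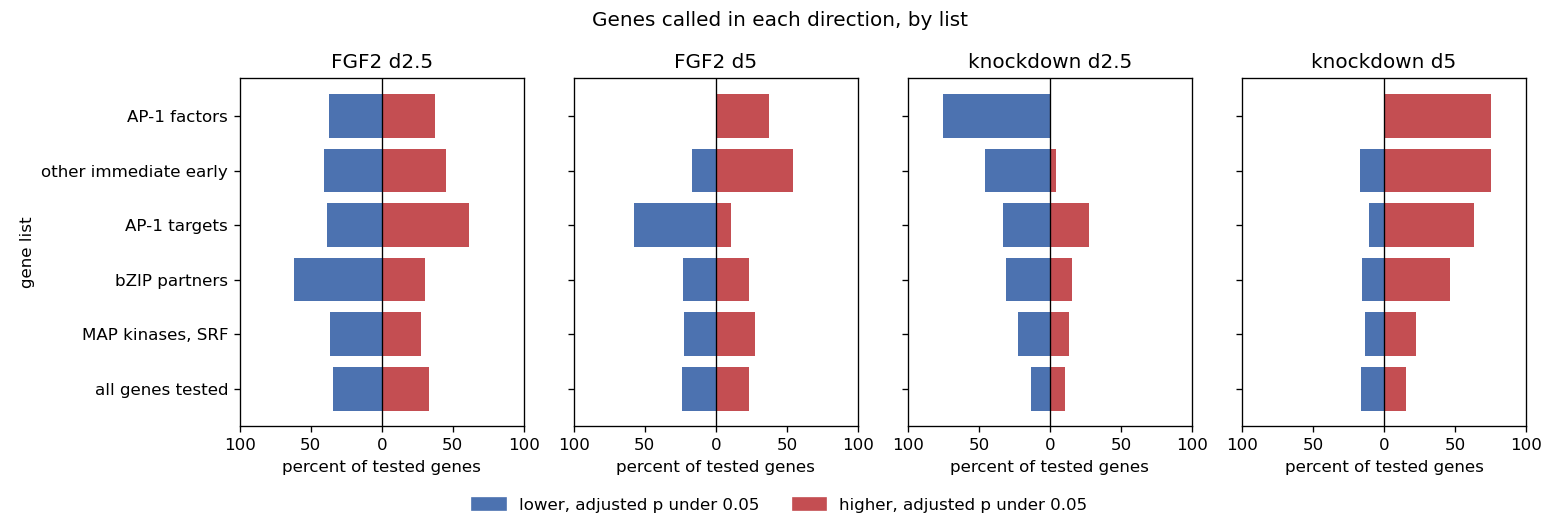
Percent of the tested genes of each list called higher (right, red) or lower (left, blue) in 4 comparisons, with all genes tested at the bottom. In the knockdown, 6 of 8 AP-1 genes were called lower at d2.5 and 6 of 8 higher at d5.

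Known AP-1 target genes, such as matrix metalloproteinases, were called in both directions. Of 22 listed, 18 were tested at d2.5 and 19 at d5, and 1 of them, Spp1, is also among the osteoblast markers. FGF2 called 11 higher and 7 lower at d2.5, and 2 higher and 11 lower at d5. The knockdown called 5 higher and 6 lower at d2.5 and 12 higher and 2 lower at d5. The shares of all genes called higher and lower were 33.5% and 34.1% for FGF2 at d2.5, 23.5% and 23.7% at d5, 10.8% and 13.6% for the knockdown at d2.5, and 15.6% and 16.1% at d5. The collagenase gene Mmp13, also known as a gene of maturing osteoblasts, had 684 to 943 counts per library in Ctrl+vehicle at d2.5 and 5 to 7 in Ctrl+FGF2 (log2 fold change −7.07 ± 0.19 SE). This fall was opposite in direction to Fosl1, Jun and Atf3 and the same in direction as Fos, Fosl2 and Junb. For Il1rl1, the receptor of a cytokine of the interleukin family, FGF2 gave a rise at d2.5 (3.66 ± 0.06) and a fall at d5 (−1.49 ± 0.16). The cytokine gene Lif also fell at d5 (−1.35 ± 0.27), from 30 to 44 counts per library to 11 to 17. The chemokine gene Ccl2 rose at d2.5 (3.56 ± 0.20), from 8 to 13 counts to 115 to 123. Mmp9 rose at d5 (1.69 ± 0.33), from 6 to 13 counts to 22 to 45, so these 3 changes rest on low counts on at least 1 side. The knockdown at d5 raised Mmp10 (2.19 ± 0.17), Il1rl1 (1.72 ± 0.15) and Mmp13 (1.59 ± 0.09). At d2.5 it lowered Lif (−0.51 ± 0.14) and the urokinase receptor gene Plaur (−0.36 ± 0.07) and raised Mmp13 to 14 to 16 counts per library (1.56 ± 0.49). The edgeR adjusted p of these was 0.0188 or below.

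Of 18 bZIP partners and relatives, 13 were tested on each day. FGF2 called 4 higher and 8 lower at d2.5 and 3 and 3 at d5, and the knockdown 2 and 4 at d2.5 and 6 and 2 at d5. The FGF2 counts at d5 are near the 23.5% and 23.7% of all genes, and the others stand against 33.5% and 34.1% for FGF2 at d2.5, 10.8% and 13.6% for the knockdown at d2.5 and 15.6% and 16.1% at d5. FGF2 raised the small Maf gene Maff at d2.5 (log2 fold change 2.02 ± 0.11 SE), and the knockdown lowered it there (−0.43 ± 0.09) and raised it at d5 (0.44 ± 0.11). Nfe2l3 had 29 to 59 counts per library in Ctrl+vehicle at d2.5 against 1 to 2 in Ctrl+FGF2 and 0 to 2 in the knockdown. At d5 FGF2 raised Bach2 (0.54 ± 0.10) and lowered Jdp2, a Jun-binding repressor (−0.50 ± 0.09). Bach2 with the knockdown at d2.5 (0.27 ± 0.14, edgeR adjusted p = 0.160) and Mafa at d5 with FGF2 (−0.76 ± 0.39, adjusted p = 0.119) or the knockdown (0.97 ± 0.37, adjusted p = 0.0576) missed the threshold, and those named as changed had an edgeR adjusted p of 0.00642 or below.

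Upstream, 22 of 23 MAP kinases, their kinases and SRF partners were tested on each day. FGF2 called 6 higher and 8 lower at d2.5 and 6 and 5 at d5, and the knockdown 3 and 5 at d2.5 and 5 and 3 at d5. The FGF2 counts are near the shares of all genes (33.5% and 34.1% at d2.5, 23.5% and 23.7% at d5), and those of the knockdown stand against 10.8% and 13.6% at d2.5 and 15.6% and 16.1% at d5. FGF2 at d2.5 lowered Mef2c (log2 fold change −1.48 ± 0.05 SE) and raised Elk3 (0.82 ± 0.03) and Map2k3, a kinase of p38 (0.50 ± 0.04). At d5 it raised Rps6ka1 (0.73 ± 0.12) and Mapk3, which encodes ERK1 (0.49 ± 0.05), and lowered Map2k1, which encodes MEK1 (−0.64 ± 0.07). The knockdown at d2.5 raised Mef2c (0.45 ± 0.05) and lowered Srf (−0.41 ± 0.07) and Mapk7, which encodes ERK5 (−0.40 ± 0.09). At d5 it lowered Rps6ka1 (−0.51 ± 0.12) and Mef2c (−0.37 ± 0.06) and raised Map2k3 (0.30 ± 0.05). The edgeR adjusted p of these was 0.00325 or below.

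For the 6 members whose group means spanned at least 1 on the log2 CPM scale, the most similar genes were sought among 9504 or 9505 genes as those with the smallest root mean square difference of centred log2 CPM over the 18 libraries. Likeness is given as a description, since the points share libraries, days and depth. The measure is not scaled to a gene's span, so it is not compared between members. The matches of Fosl2, with a span of 1.23, were Gabarap (0.076), Pcolce, a procollagen processing enhancer (0.076), and Tax1bp3 (0.086). The matches of Jun, with a span of 1.47, were Nkain1 (0.18), Nab2, a corepressor of Egr proteins (0.20), and Fndc3a (0.20). Fos, with a span of 4.05, was matched by Etl4 (0.20), Sphk1 (0.29) and Smtn (0.32), and the last of these is in the smooth muscle list, whose sum was higher at d5 than at d2.5. Junb, with a span of 1.61, was matched by Id3 (0.23) and Col4a6 (0.26), and Atf3, with a span of 1.19, by Slc16a10 (0.26), Nceh1 (0.26) and Slc27a1 (0.26). For Fosl1 they were Fyb (0.41), the replication licensing gene Mcm5 (0.46) and the potassium channel gene Kcnn4 (0.47), on a span of 4.27.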

How the data were processed

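Polyadenylated RNA of 18 libraries was sequenced by the authors (SMARTER kit). For each library the authors deposited raw gene counts in 3 columns (both strands and each strand), laid out as STAR writes them. The submitters' processing notes list FastQC, STAR, Picard and featureCounts and the build mm10, and the settings are not given in the sources used here. The 4th column was used, since 96.0% to 96.6% of the stranded counts were in it. Rows without a gene (27.0% to 34.4% of a library) were dropped. Of 55335 identifiers, 55154 matched GENCODE M21 (54587 with the same version).

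For tests edgeR 4.0.16 was run in R 4.3.3 (quasi-likelihood, TMM, filterByExpr, Benjamini-Hochberg over all genes, threshold 0.05), in a fit of the 9 libraries of each day. Differences between days were tested in a fit of all 18 libraries. Values after ± are standard errors of log2 fold changes or, for levels and shares, SDs over 3 libraries. Levels come from 1 scaling of 18 libraries and tests from the fits, so folds can differ slightly. No pair of replicates agreed within sampling noise (chi-square per gene 1.28 to 7.03 over 18 pairs). The scripts were tested on simulated data.

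The members, lists and tests were chosen with earlier results of these data known. Named genes were all 8 members, the siRNA targets, the 3 genes with the largest absolute log2 fold change of each list, for FGF2 and the knockdown on each day, and for each member with a span of at least 1 the 3 most similar genes whose mean log2 CPM reached 3. Some genes that this rule names are not reported here. Alternatives were DESeq2 1.42.0, RLE factors, total counts, no filter, strandless counts, a replicate block, all 18 libraries in 1 fit, levels without length and leaving out each library.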

Additional observations from a re-analysis of the deposited data

Results flagged for a closer look

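The effects of FGF2 and of the knockdown on the AP-1 genes differed between d2.5 and d5, tested as a difference of differences in the edgeR fit of all 18 libraries. For FGF2, the log2 fold change at d5 minus that at d2.5 was 1.60 for Junb (adjusted p = 1.64e-12), 1.55 for Fos (1.16e-05) and 0.72 for Fosl2 (1.26e-12), and it was −2.73 for Fosl1 (6.24e-12), −1.26 for Jun (7.79e-14) and −0.82 for Atf3 (0.000196). For the knockdown it was 1.66 for Fosl1 (7.40e-08), 1.62 for Atf3 (3.71e-08), 0.88 for Jun (1.23e-09), 0.86 for Junb (3.83e-06), 0.78 for Jund (8.79e-07) and 0.18 for Fosl2 (0.0167). Day and batch cannot be told apart in these values.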

How the results depend on the processing

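Over 88 member values and their alternatives, 1700 of 1728 recomputed values kept their side of the threshold, 20 lost a call, 7 gained one and 1 turned its direction: Jund at d5 against d2.5 in Ctrl+vehicle was 0.025 with strandless counts (adjusted p = 0.836). A turn was counted only where the value was called in the main fit or in the alternative. Some values called in neither changed sign, such as Fosl1 with FGF2 at d5, at −0.38 to 0.10 over its alternatives. The members called for FGF2 at d5 numbered 1 to 4 when 1 library was left out, with 1 without Ctrl+FGF2 replicate 3. The Fosl1 share of the Fos family in Ctrl+FGF2 at d2.5 was 34.3% without length, in place of 70.6%. The numbers of members called changed by at most 1.5 times under all other alternatives. For the knockdown at d2.5, Fosl2 and Junb were both lost without Ctrl+FGF2 replicate 1 or without Y/T dKD+FGF2 replicate 3. For the knockdown at d5, strandless counts lost Fosl1 and Jund. Strandless counts also lost Fosl1 (0.74, adjusted p = 0.0623) and Jund (0.15, 0.298) when the knockdown was set against vehicle at d5, and Jund at d2.5 (−0.16, 0.127), and called the change of Jund's FGF2 effect (−0.33, 0.0412). Total counts called Fosb in Ctrl+vehicle (−0.66, 0.0281) and Jun in Y/T dKD+FGF2 (−0.18, 0.00332) between the days. Fos and Fosb rest on under 60 counts per library at d2.5, which limits what can be detected. The cause of these shifts was not tested.

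The labels do not say whether replicate numbers pair the libraries. Deviations of same-numbered libraries correlated at −0.133 to 0.0564 at d2.5 and −0.152 to 0.382 at d5. Those of differently numbered libraries correlated at −0.0551 to 0.162 and −0.359 to 0.136. Between Ctrl+vehicle and Ctrl+FGF2 at d5, same-numbered libraries were at 0.334, 0.382 and 0.0257 for replicates 1, 2 and 3. The crossed pairs of replicates 1 and 2 were at −0.345 and −0.359 there, and a pairing of these libraries was not tested. With the replicate block, 6 members were called for FGF2 at d2.5 and for the knockdown on either day, and 3 for FGF2 at d5, and no call of a member changed.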
